A study of Homo sapiens with 16 samples.

Results

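The genes described here are 10 members of the BCL2 family, out of 35052 genes to which transcripts could be assigned, and were taken from a list by name: BCL2, BCL2L1, MCL1, BCL2A1, BCL2L11, BAX, BAK1, BBC3, PMAIP1 and BID. Their RNA was measured by sequencing in K562, an established human leukaemia cell line of wild-type genotype as labelled, derived from chronic myeloid leukaemia and carrying the BCR-ABL1 fusion. The cells, grown in RPMI medium with fetal bovine serum, received 25 nM phorbol 12-myristate 13-acetate (PMA), an activator of protein kinase C under which K562 cells take on megakaryocyte-like features, and were sampled before it (0 h, the untreated control), in the first hours (0.5, 1.5 and 3 h, and then 6 h) and daily afterwards (24, 48 and 72 h). Medium was renewed after 24 and 48 h, so the late samples had fresh medium that the early ones did not, and cells kept without PMA for the same times were not analysed here. Each time point had 2 libraries, 16 in all, of ribosomal RNA-depleted total RNA, and nothing in the labels says whether replicates were separate cultures, so p-values measure the spread between libraries, which may be technical.

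Proteins of the BCL2 family decide whether the outer mitochondrial membrane is opened, the step that commits a cell to intrinsic apoptosis. Guardians (BCL2, BCL-XL from BCL2L1, MCL1 and BFL-1 from BCL2A1) hold the effectors BAX and BAK1 in check, and the effectors, once released, assemble into pores through which cytochrome c escapes to the caspase-activating apoptosome. BH3-only proteins (BIM from BCL2L11, PUMA from BBC3, NOXA from PMAIP1, and BID) relay stress signals by occupying guardians or by activating effectors. In the megakaryocyte and platelet lineage BCL-XL and MCL1 are the guardians best known for supporting survival. All of the measurements below are of RNA, and these proteins are also controlled by rapid turnover, phosphorylation and cleavage, which RNA does not show.

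The libraries held between 27285773 and 54056289 estimated reads each. Levels are given as CPM, counts per 1000000 of the TMM-scaled library, on which 3 reads, the floor used here, are worth between 0.0623 and 0.128 CPM. All 9 listed K562 and erythroid markers stayed above 1 CPM in both libraries of every time point. They did not hold their level: at 24 h 2 were called higher and 7 lower than at 0 h (58.3% of all genes called). Their sum was 1980 to 2250 CPM at 0 h, 1230 to 1320 CPM at 24 h and 1480 to 1970 CPM at 72 h. The summed level of 5 megakaryocyte-like markers went from 58.3 to 68.2 CPM at 0 h to 5390 to 6200 CPM at 72 h. The 5 did not all rise: at 6, 24 and 48 h 1 was called lower than at 0 h, and at 72 h 4 were called higher and 0 lower. The 18 listed markers of other cell types summed to 162 to 164 CPM at 0 h and to 366 to 368 CPM at 72 h, with 3 of them at 0 reads at each of those times and COL1A1, a collagen gene, at 207 CPM on average at 72 h. Of the 14 of these that were tested, 8 were called higher and 4 lower at 72 h (58.6% of all genes called). The part of the marker change in the results below was not tested. In a bulk sample, fewer cells of a type and less RNA per cell cannot be told apart. The 0 h libraries differed from each other with GC content: the correlation across 9957 genes between a gene's GC content and its replicate 1 over replicate 2 log ratio was -0.71, given as a description since genes are not independent, and GC-rich genes were lower in replicate 1. At the other times it was -0.55 to 0.37. Values with this trend removed are given where they change a call against 0 h.

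At 6 h of PMA all 10 genes were called against 0 h, and each role held both higher and lower genes. MCL1, BCL2A1 and BAK1 rose many-fold, PMAIP1 rose slightly, and BCL2, BCL2L1, BAX, BBC3, BCL2L11 and BID fell, although the calls of PMAIP1 and BID at 6 h did not hold in every alternative. At 24 h the differences of BCL2L1 and BAX from 0 h were not called and BCL2L11 had passed its own, whereas BCL2, BBC3 and BID stayed low and MCL1, BCL2A1 and BAK1 stayed high to 72 h. Genes were tested with edgeR's quasi-likelihood test at a Benjamini-Hochberg adjusted p under 0.05 over the 17559 genes that passed the low-count filter, as did all 10 members. Against 0 h, 1 member was called at 0.5 h, when 0.171% of all genes were called, 3 at 1.5 h (17.1% of all genes), 7 at 3 h (42% of all genes), 10 at 6 h (57.2% of all genes), 8 at 24 h (58.3% of all genes), 8 at 48 h (54.3% of all genes) and 9 at 72 h (58.6% of all genes). The calls ran in both directions, with 4 higher and 6 lower at 6 h (27.8% and 29.4% of all genes) and 6 higher and 3 lower at 72 h (31.7% and 26.9% of all genes). When scaled to total counts, 3 members were higher and 6 lower at 6 h, and 4 higher and 3 lower at 72 h. The calls over all genes moved the same way: 30.3% of them were higher at 6 h and 44.5% at 72 h, beside 48.6% and 54% with TMM. With TMM scaling, the median absolute log2 fold change of the members at 6 h was 2.42, beside 0.65 over all genes. The members were chosen with earlier results of these data known, so this contrast is a description only. In a test for any difference over the course all 10 were called, as were 82.9% of all genes.

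**Figure D1:**
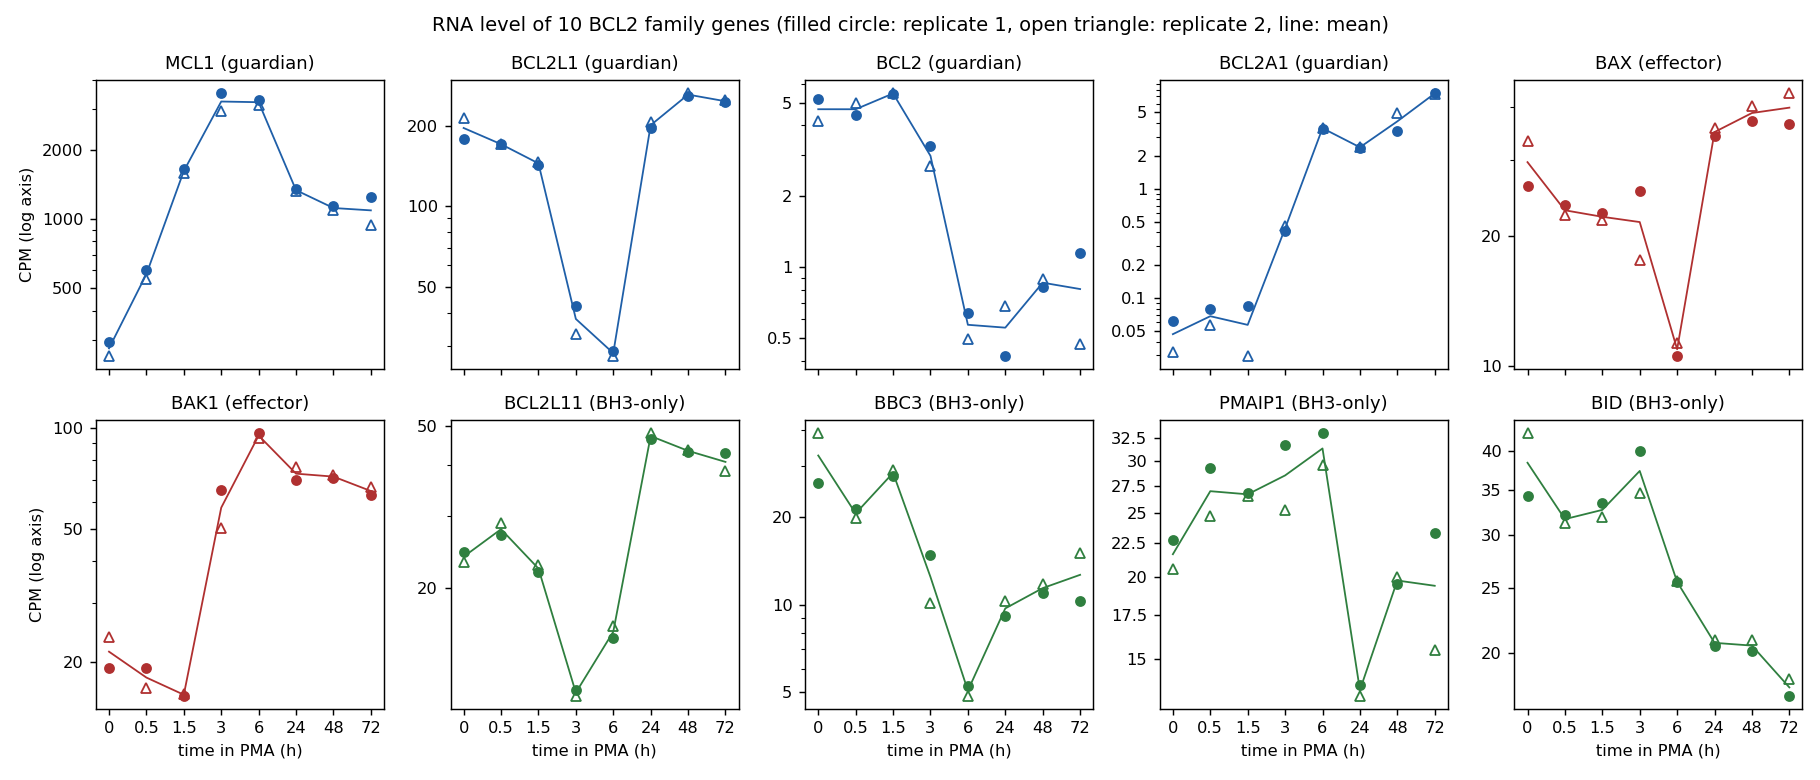
CPM of each of the 10 genes (log axis) against hours in PMA (0 to 72 h, evenly spaced), with a filled circle for replicate 1, an open triangle for replicate 2 and a line through their mean. MCL1 peaked at 3 to 6 h, BCL2L1 and BAX had their lowest values at 6 h and recovered by 24 h, and BCL2A1 was highest at 72 h.

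Among the guardians, MCL1 moved first. MCL1 (chromosome 1, 150574551 to 150579738, minus strand, GRCh38) encodes a guardian with a short-lived protein and a short-lived messenger. It was measured at 294 and 255 CPM in the 2 libraries at 0 h, at 603 and 552 CPM at 0.5 h, and at 1652 and 1583 CPM at 1.5 h. The libraries held 3532 and 2947 CPM at 3 h and 3304 and 3131 CPM at 6 h. Values were 1353 and 1318 CPM at 24 h, 1142 and 1093 CPM at 48 h, and 1243 and 939.8 CPM at 72 h. Every treated library lay above both 0 h libraries. The log2 fold change against 0 h was 1.07 (SE 0.13, edgeR adjusted p = 0.00224) at 0.5 h and 3.56 (SE 0.15, edgeR adjusted p = 4.41e-10) at 3 h, an 11.8-fold rise. MCL1 was the only member called at 0.5 h, and in a fit of only the 0 and 0.5 h libraries that call was lost (log2 fold change 1.08, adjusted p = 0.139).

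MCL1 rose in successive steps and then came part of the way back. It rose again between 0.5 and 1.5 h (log2 fold change 1.49, SE 0.14) and between 1.5 and 3 h (1.00, SE 0.13), did not change detectably between 3 and 6 h (-0.01, 95% interval -0.30 to 0.28), and fell by 1.27 (SE 0.13) from 6 to 24 h. Between 24 and 48 h and between 48 and 72 h its log2 differences were -0.26 and -0.03, neither called, and at 72 h it was still 3.97-fold above 0 h. Most MCL1 reads (92.8% on average over the libraries) were assigned to MCL1-202, which encodes the 350-residue protein. A non-coding processed transcript, MCL1-203, held 3.4% and 3.9% of the gene's reads at 0 h, 8.1% and 8.4% at 0.5 h, and 2.2% to 6.1% from 1.5 h on. MCL1-203 starts at base 150578777, downstream of the start of MCL1-202 at base 150579590, and these shares are estimates for overlapping transcripts, with no test.

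BCL2L1, the other guardian with an abundant messenger, moved the opposite way over the first hours. BCL2L1 (chromosome 20, 31664452 to 31723989, minus strand) was at 178 and 214 CPM at 0 h, at 171 and 171 CPM at 0.5 h and at 143 and 147 CPM at 1.5 h. It was at 42.5 and 33.2 CPM at 3 h and at 28.8 and 27.6 CPM at 6 h. The levels were 196 and 206 CPM at 24 h, 258 and 266 CPM at 48 h, and 245 and 249 CPM at 72 h. The libraries at 3 and 6 h lay far below all others, and those at 24 h overlapped the 0 h range. The gene was 6.96-fold lower at 6 h than at 0 h (log2 difference -2.80, SE 0.12 and edgeR adjusted p = 2.61e-10). Between 1.5 and 3 h the log2 difference was -1.93 (SE 0.12), and from 3 to 6 h a further -0.43 (SE 0.12), a call lost without 3 h replicate 1 (-0.24) or 6 h replicate 2 (-0.37) and with the GC trend removed (-0.26). From 6 to 24 h it rose 7.13-fold (log2 difference 2.83, SE 0.12 and edgeR adjusted p = 8.29e-10).

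Late in the course BCL2L1 ended slightly above its start. The log2 fold change against 0 h was 0.04 (95% interval -0.20 to 0.27) at 24 h, 0.42 (SE 0.11, edgeR adjusted p = 0.00585) at 48 h and 0.33 (SE 0.11, adjusted p = 0.0194) at 72 h. At 1.5 h it had been lower by a small step (-0.44, SE 0.11, adjusted p = 0.0173). The 48 h call was lost without 0 h replicate 1 (0.29). The rise from 24 to 48 h (0.38, adjusted p = 0.0341) was lost without any 1 library of 0.5, 1.5, 24 or 48 h (0.34 to 0.45). The 72 h call was lost without 0 h replicate 1 (0.21), without 72 h replicate 2 (0.32) and when scaled to total counts (0.18). The 1.5 h call was lost without 0 h replicate 2 (-0.31), without 1.5 h replicate 1 (-0.42) or replicate 2 (-0.46), and with the GC trend removed (-0.20).

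BCL2L1 makes a long messenger for the guardian BCL-XL and a short one for BCL-XS, which lacks part of the protein and is known to promote death. The forms differ in the 5′ splice site that is joined to the last exon: the short form, BCL2L1-202, uses a site 189 bases upstream of that of the long forms, BCL2L1-201 and BCL2L1-203. The 20 bases on either side of the junction are shown because the forms part there, with the last exon in capitals (GRCh38 chromosome 20, minus strand, last exon from base 31666086 downward):
BCL2L1-201 and BCL2L1-203 (long form, 233 residues): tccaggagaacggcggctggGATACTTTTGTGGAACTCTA
BCL2L1-202 (short form, 170 residues): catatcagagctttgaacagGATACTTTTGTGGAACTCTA
The short form took 3.4% and 7.8% of the gene's estimated reads at 0 h, 8.8% with 9.3% at 3 h, then 2.0% and 3.2% at 6 h and in the end 4.0% and 4.5% at 72 h. Over all libraries it held between 1.2% and 9.3%, and its replicates at 0 h differed by more than its means did between most times. The long-form transcripts together held the bulk of the reads at every time point.

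The long-form transcripts, which encode the same 233 residues and differ in where they start, exchanged rank between 3 and 6 h. BCL2L1-201 held 49.2% and 50.7% of the reads at 0 h and 53.9% and 52.3% at 3 h, against 25.0% and 34.8% at 6 h and 28.5% and 36.8% at 72 h. BCL2L1-203 held 39.5% and 33.2% at 0 h and 27.9% and 30.2% at 3 h, against 60.4% and 50.9% at 6 h and 60.6% and 52.5% at 72 h. The libraries of 3 and 6 h did not overlap for either transcript. These shares are estimates and carry no test. On the TPM scale, which divides by effective length, the mean share of BCL2L1-203 was 37.3% in place of 44.3%.

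**Figure D2:**
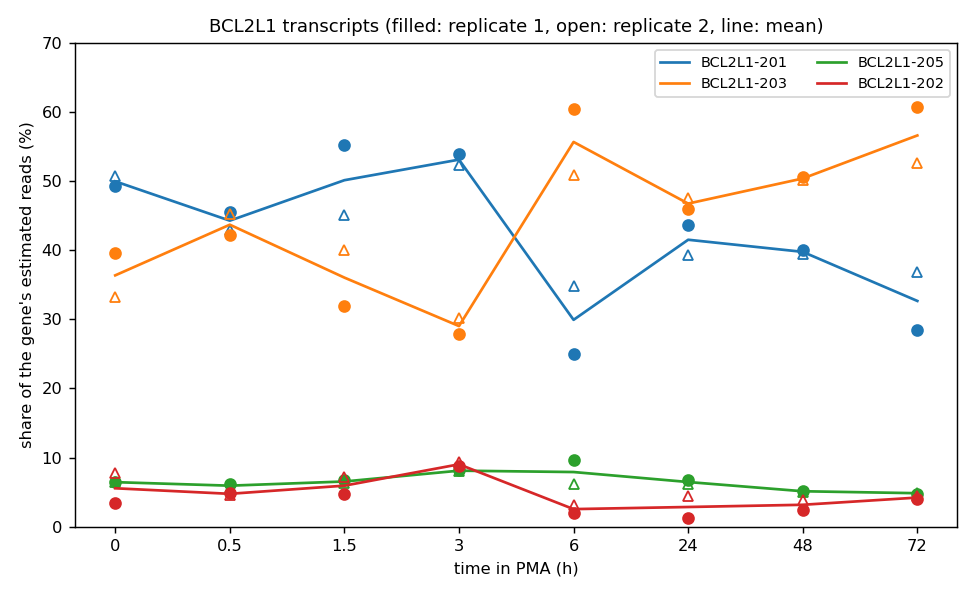
Share of the estimated reads of BCL2L1 (percent) assigned to its 4 main transcripts against hours in PMA, with a filled circle for replicate 1, an open triangle for replicate 2 and a line through the mean. The lines of BCL2L1-201 and BCL2L1-203 cross between 3 and 6 h, and the short form BCL2L1-202 stays between 1.2% and 9.3%.

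The start of BCL2L1-201, together with those of BCL2L1-202 and BCL2L1-205, lies inside the first of 2 RefSeq promoters of the gene (GRCh38.p14, minus strand, chr20:31722819-31723118, from 250 bases before to 50 after the annotated start), which is shown because the gene had the largest fall and return among the 10. The start of BCL2L1-203, at base 31722597, lies downstream of this window, and the other promoter (chr20:31723914-31724213) holds no start of a transcript counted here. None of the 5 motifs searched on both strands was found in it (AP-1 TGANTCA, EGR GCGTGGGCG, CRE TGACGTCA, STAT TTCNNNGAA and an NF-kB pattern), which says only that these letters are not in the window.
BCL2L1 promoter: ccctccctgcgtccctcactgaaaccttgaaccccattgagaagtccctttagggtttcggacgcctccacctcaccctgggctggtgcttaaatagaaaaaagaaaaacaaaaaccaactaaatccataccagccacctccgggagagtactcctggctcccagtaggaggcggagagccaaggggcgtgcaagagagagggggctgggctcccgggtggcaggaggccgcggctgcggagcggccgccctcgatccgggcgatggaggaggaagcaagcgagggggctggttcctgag

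BCL2, the founding guardian, was scarce throughout, and its first called difference from 0 h came at 6 h. BCL2 (chromosome 18, 63123346 to 63320128, minus strand) was at 5.19 and 4.18 CPM at 0 h, at 4.41 and 4.96 CPM at 0.5 h and at 5.43 and 5.50 CPM at 1.5 h. It was at 3.26 and 2.68 CPM at 3 h, 0.640 and 0.496 CPM at 6 h, and 0.420 and 0.685 CPM at 24 h. The libraries held 0.823 and 0.892 CPM at 48 h and 1.14 and 0.469 CPM at 72 h. All libraries from 6 h on lay below all earlier ones. BCL2 was 8.27-fold lower at 6 h than at 0 h (log2 difference -3.05, SE 0.35 and edgeR adjusted p = 3.77e-06), with the step from 3 to 6 h at -2.39 (SE 0.35). A fall from 1.5 to 3 h was also called (-0.88, SE 0.28, edgeR adjusted p = 0.0339). That call was lost in 9 of 28 alternatives, among them with the GC trend removed (-0.69). At 3 h the difference from 0 h (-0.66, edgeR adjusted p = 0.0778) was not called, and was called in 5 of 28 alternatives. The 72 h level differed from the 6 h level by a log2 fold change of 0.53 (95% interval -0.31 to 1.37, not called), which was called without 72 h replicate 2 (1.02, adjusted p = 0.0195) and with counts derived from TPM (1.07, adjusted p = 0.00962) and was -0.26 without 72 h replicate 1.

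The late BCL2 values rest on few reads, 13 to 41 per library from 6 h on. The 72 h libraries differed 2.44-fold in CPM, and the log2 fold change of -2.52 against 0 h (edgeR adjusted p = 1.11e-05) became -3.31 without 72 h replicate 1 and -1.91 with counts derived from the TPM values. Reads were spread over BCL2-202 and BCL2-201, both encoding 239 residues, and BCL2-203, encoding 205, with shares that differed between replicates and ran from 0% to 83.05% for BCL2-202 alone, so no share is read here.

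BCL2A1 went from almost nothing to a low but clear level. BCL2A1 (chromosome 15, 79960889 to 79971446, minus strand), whose product BFL-1 is known as an NF-kB target in blood cells, had 2 and 1 reads at 0 h, 3 and 2 reads at 0.5 h and 3 and 1 reads at 1.5 h, all at or under the floor. It had 15 and 14 reads at 3 h (0.411 and 0.457 CPM) and 83 and 102 at 6 h (3.54 and 3.61 CPM). It then had 2.36 and 2.43 CPM at 24 h, 3.35 and 4.91 CPM at 48 h, and 7.52 and 7.34 CPM at 72 h. Every library from 3 h on lay above all earlier ones. Relative to the 3 reads at 0 h, the ratio of summed reads over summed scaled library size was 9.17 at 3 h (95% counting interval 2.84 to 47), 76 at 6 h (25.6 to 372) and 158 at 72 h (53.7 to 768), intervals that cover counting error only.

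BCL2A1 was called against 0 h from 3 h on (edgeR adjusted p = 0.000161 at 3 h and 1.03e-09 at 72 h). Between 6 and 24 h it fell (log2 difference -0.58, SE 0.22 and edgeR adjusted p = 0.0376), and between 24 and 48 h it rose (0.79, SE 0.22, adjusted p = 0.0252). Neither of these calls was firm: the first was lost without either library of 0.5, 6 or 24 h (-0.64 to -0.55) and the second without 24 h replicate 1 (0.76) or replicate 2 (0.85) or 48 h replicate 2 (0.48), and both by DESeq2 (-0.57 and 0.81). The 72 h level was 2.08-fold above that at 6 h (log2 fold change 1.05, SE 0.21, adjusted p = 0.000803). From 48 to 72 h the difference was 0.85 (SE 0.21) and was not called at an adjusted p of 0.0702. Most reads (91.2% on average) were assigned to BCL2A1-201, encoding 175 residues.

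The BCL2A1 promoter is shown because this gene had the largest rise among the 10. A single motif was found in it, a STAT pattern at position -168 from the annotated start, in capitals. Of all 35116 promoters of this length, 7.66% held that pattern, and the match is a description, not a site (RefSeq, GRCh38.p14, minus strand, chr15:79971147-79971446).
BCL2A1 promoter: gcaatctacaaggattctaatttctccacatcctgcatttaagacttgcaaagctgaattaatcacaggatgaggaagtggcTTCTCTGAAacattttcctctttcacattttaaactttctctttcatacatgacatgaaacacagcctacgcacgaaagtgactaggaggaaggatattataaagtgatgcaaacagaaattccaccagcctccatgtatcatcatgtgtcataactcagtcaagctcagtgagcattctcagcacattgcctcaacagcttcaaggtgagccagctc

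The effectors BAX and BAK1 are close relatives that can each form the pore, and their messengers moved in opposite directions between 1.5 and 6 h, while both were higher than at 0 h at 72 h. BAX (chromosome 19, 48954815 to 48961798, plus strand) was at 26.2 and 33.3 CPM at 0 h, at 23.6 and 22.4 CPM at 0.5 h and at 22.6 and 21.8 CPM at 1.5 h. It was at 25.5 and 17.7 CPM at 3 h and at 10.6 and 11.3 CPM at 6 h. The libraries held 34.2 and 35.7 CPM at 24 h, 37.1 and 40.2 CPM at 48 h, and 36.5 and 43.0 CPM at 72 h. The 6 h libraries were the lowest of the 16, and those from 24 h on lay above both 0 h libraries. The 2.71-fold fall at 6 h (log2 difference -1.44, SE 0.16 and edgeR adjusted p = 4.23e-06) was followed by a 3.18-fold rise from 6 to 24 h (1.67, SE 0.16, edgeR adjusted p = 1.63e-06).

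BAX is GC-rich (59.6% over its exons), and with the GC trend removed its 6 h difference was -0.83, still called. Its smaller differences against 0 h did not hold under several settings. The 3 h call (-0.46, edgeR adjusted p = 0.0305) was lost with the GC trend removed (-0.09), without 0 h replicate 2 (-0.28) and without 3 h replicate 2 (-0.22). The 72 h call (0.42, adjusted p = 0.0319) was lost without 0 h replicate 1 (0.26), without 72 h replicate 2 (0.30) and when scaled to total counts (0.27). The differences at 24 h (0.23, adjusted p = 0.211) and 48 h (0.38, adjusted p = 0.0531) were not called. With the GC trend removed both were (0.40 and 0.43, adjusted p = 0.00596 and 0.00376), and the one at 48 h was called in 11 of 28 alternatives, among them without 3 h replicate 1 (0.38) or replicate 2 (0.38), 72 h replicate 1 (0.38) or replicate 2 (0.38), and 0 h replicate 2 (0.56). BAX-201, encoding 218 residues, took 62.3% of the BAX reads on average, and BAX-202, encoding 192, took 20.3%. BAX-202 held 12.5% to 14.7% at 6 h, below every library of the other times (15.97% or more).

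BAK1 rose by 6 h as BAX fell. BAK1 (chromosome 6, 33572547 to 33580293, minus strand) was at 19.2 and 23.8 CPM at 0 h, at 19.3 and 16.7 CPM at 0.5 h and at 15.9 and 16.1 CPM at 1.5 h. It was at 65.1 and 50.4 CPM at 3 h and at 96.5 and 92.9 CPM at 6 h. The values were 69.6 and 76.2 CPM at 24 h, 70.8 and 72.1 CPM at 48 h, and 63.1 and 66.4 CPM at 72 h. All libraries from 3 h on lay above all earlier ones. BAK1 was 4.40-fold higher at 6 h than at 0 h (log2 difference 2.14, SE 0.13 and edgeR adjusted p = 8.43e-09). Between 1.5 and 6 h the rise was 5.91-fold (2.56, SE 0.13, adjusted p = 2.28e-09).

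After its peak BAK1 declined only in part. It was lower at 24 than at 6 h (log2 difference -0.38, SE 0.12 and edgeR adjusted p = 0.0196), a call lost without 6 h replicate 1 (-0.37) or 24 h replicate 1 (-0.31), when scaled to total counts (-0.26) and with counts derived from TPM (-0.33). At 72 h it was still 3.01-fold above 0 h (1.59, SE 0.13). The dip at 1.5 h (-0.43, adjusted p = 0.0415) was called in 11 of 28 alternatives, and was lost, for example, without 0 h replicate 2 (-0.27) and with the GC trend removed (-0.13). It is given as a value only. BAK1-202, encoding 211 residues, held 95.5% of its reads on average. BAK1 overlaps the pseudogene GGNBP1 on the opposite strand, which had 53 estimated reads over all 16 libraries, and whether the counting used strand is not given in the sources used here.

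The opposite courses turned the order of the effectors around on the TPM scale, where levels of different genes are compared per length. BAK1 over BAX was 0.292 and 0.281 in the 0 h libraries, 0.976 with 1.20 at 3 h, then 3.90 and 3.62 at 6 h, 0.761 and 0.919 at 24 h and in the end 0.673 and 0.657 at 72 h. BAX made up 77.4% and 78.1% of the summed effector TPM at 0 h, then 20.4% and 21.6% at 6 h and in the end 59.8% and 60.3% at 72 h. The sum itself was 66.6 and 77.2 TPM at 0 h, 75.9 and 66.4 TPM at 6 h, and 122 and 130 TPM at 72 h. The 6 h and 0 h sums overlapped, and both 72 h sums lay above both 0 h sums.

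At 6 h, 3 of the 4 BH3-only genes were lower than at 0 h and PMAIP1 was higher. BBC3 (chromosome 19, 47220822 to 47232766, minus strand), which encodes PUMA, a BH3-only protein known as a p53 and FOXO target that binds every guardian, had the deepest fall. It was at 26.2 and 39.2 CPM at 0 h, at 21.4 and 19.9 CPM at 0.5 h and at 27.8 and 29.2 CPM at 1.5 h. It was at 14.8 and 10.1 CPM at 3 h and at 5.25 and 4.85 CPM at 6 h. The libraries held 9.13 and 10.3 CPM at 24 h, 11 and 11.8 CPM at 48 h, and 10.3 and 15.0 CPM at 72 h. All libraries from 3 h on lay below all earlier ones.

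BBC3 was 6.48-fold lower at 6 h than at 0 h (log2 difference -2.70, SE 0.23 and edgeR adjusted p = 2.64e-07), and -1.86 with the GC trend removed, still called. It is the most GC-rich member (67.1% over its exons), and its 0 h libraries differed 1.49-fold. It regained part of its level from 6 to 24 h (log2 fold change 0.95, SE 0.23, adjusted p = 0.00356) and at 72 h was 2.58-fold below 0 h (-1.37, SE 0.21, adjusted p = 8.55e-05). The 0.5 h difference of -0.66 was not called (adjusted p = 0.181), and was called without 0 h replicate 1 (-0.92). BBC3-203, encoding 193 residues, took 61.1% of the reads on average, and 14.5% and 11.9% were assigned to the intron-retaining BBC3-206 and BBC3-205, which encode no protein in the annotation.

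The RefSeq promoter of BBC3 is shown because the gene was the BH3-only member with the largest fall. An AP-1 pattern, the binding letters of FOS and JUN proteins, stood at position -113, in capitals. Of all promoters 7.71% held it. This window holds the starts of BBC3-202, BBC3-201 and BBC3-204, whereas BBC3-203 starts at base 47231194, downstream of it (GRCh38.p14, minus strand, chr19:47232618-47232917).
BBC3 promoter: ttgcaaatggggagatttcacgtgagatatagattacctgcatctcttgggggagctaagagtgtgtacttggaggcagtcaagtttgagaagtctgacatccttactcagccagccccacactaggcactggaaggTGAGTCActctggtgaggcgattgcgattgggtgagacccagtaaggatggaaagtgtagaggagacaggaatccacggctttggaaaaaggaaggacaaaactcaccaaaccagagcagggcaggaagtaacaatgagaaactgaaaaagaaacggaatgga
Promoters in this table were found for 9 members, 14 in all, and these STAT and AP-1 matches were the only ones of the 5 motifs. They overlap no other match. EGR, CRE and NF-kB letters were found in 0.795%, 1.85% and 1.91% of all promoters.

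BCL2L11, which encodes BIM, another BH3-only protein that binds every guardian, fell early and then rose above its start. BCL2L11 (chromosome 2, 111119378 to 111168447, plus strand) was at 24.6 and 23.2 CPM at 0 h, at 27.0 and 28.8 CPM at 0.5 h and at 21.9 and 22.8 CPM at 1.5 h. It was at 11.3 and 10.9 CPM at 3 h and at 15.1 and 16.2 CPM at 6 h. The values were 46.3 and 48.0 CPM at 24 h, 43.2 and 43.6 CPM at 48 h, and 42.9 and 38.6 CPM at 72 h. The libraries formed a low group at 3 and 6 h and a high group from 24 h on, with no overlap with 0 h in either. The gene was 2.15-fold lower at 3 h than at 0 h (log2 difference -1.10, SE 0.09 and edgeR adjusted p = 5.63e-07) and 1.97-fold higher at 24 h (0.98, SE 0.09, adjusted p = 5.62e-07).

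From 3 to 6 h it rose (log2 difference 0.50, SE 0.09 and edgeR adjusted p = 0.000805), which with counts derived from TPM was 0.26 and not called, and it rose a further 3.01-fold from 6 to 24 h (1.59, SE 0.09, adjusted p = 1.41e-08). Between 3 and 24 h the difference was 2.08 (SE 0.09, adjusted p = 6.57e-10). Its 2 libraries lay within 1.11-fold of each other at every time point. BCL2L11-206, encoding 198 residues, the length of the BIM extra-long form, took 45.3% of the reads on average, with a range of 0% to 66.0% between libraries.

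PMAIP1, which encodes NOXA, a BH3-only protein known to bind MCL1 and BFL-1 in particular, was the BH3-only member that was higher at 6 h. PMAIP1 (chromosome 18, 59899948 to 59904306, plus strand) was at 22.7 and 20.6 CPM at 0 h, at 29.3 and 24.7 CPM at 0.5 h and at 26.8 and 26.6 CPM at 1.5 h. It was at 31.8 and 25.3 CPM at 3 h and at 33.1 and 29.6 CPM at 6 h. The libraries held 13.7 and 13.2 CPM at 24 h, 19.5 and 19.97 CPM at 48 h, and 23.3 and 15.5 CPM at 72 h. The 24 h libraries were the lowest of all. The rise at 6 h was 1.45-fold (log2 difference 0.53, SE 0.17 and edgeR adjusted p = 0.0141), and the fall from 6 to 24 h was 2.33-fold (-1.22, SE 0.17, adjusted p = 4.06e-05).

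The 24 h fall of PMAIP1 also showed against 0 h (log2 difference -0.69, SE 0.17 and edgeR adjusted p = 0.00339), and it was followed by a rise from 24 to 48 h (0.55, SE 0.17, adjusted p = 0.0426). That last call was lost without any 1 library of 0.5, 1.5, 6, 24 or 48 h (0.53 to 0.58). The 6 h call was lost when scaled to total counts (0.17), without 6 h replicate 1 (0.46) and without 0 h replicate 2 (0.46). At 72 h the difference of -0.16 was not called, and was called without 72 h replicate 1 (-0.48). At 3 h the difference of 0.40 was not called, and was called in 8 of 28 alternatives, among them with the GC trend removed (0.46, adjusted p = 0.0246) and without 3 h replicate 2 (0.56), 72 h replicate 1 (0.40) or 72 h replicate 2 (0.40). PMAIP1-202, with the 54-residue protein, held 79.2% of the reads on average, and PMAIP1-201, with a 136-residue reading frame in the annotation, held 18.7%. PMAIP1-201 had 0.0% in both 0 h libraries, 1.2% to 18.6% in the 7 treated libraries of replicate 1 and 26.2% to 45.2% in the 7 of replicate 2. The gap between transcript and effective length, which stands for the mean fragment length, also moved with this split: it was 210 to 221 nt in replicate 1, 229 to 248 nt in the treated libraries of replicate 2 and 199 nt in 0 h replicate 2. Its part in the transcript shares was not tested.

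BID, which links death receptors to mitochondria after cleavage by caspase-8, declined late and lastingly. BID (chromosome 22, 17734138 to 17774770, minus strand) was at 34.3 and 42.6 CPM at 0 h, at 32.1 and 31.2 CPM at 0.5 h and at 33.5 and 31.9 CPM at 1.5 h. It was at 40.0 and 34.6 CPM at 3 h and at 25.5 and 25.6 CPM at 6 h. The values were 20.5 and 20.9 CPM at 24 h, 20.1 and 20.9 CPM at 48 h, and 17.3 and 18.3 CPM at 72 h. From 6 h on every library lay below all earlier ones. BID was 2.16-fold lower at 72 h than at 0 h (log2 difference -1.11, SE 0.11 and edgeR adjusted p = 1.23e-06), and it fell between 3 and 6 h (-0.55, SE 0.11, adjusted p = 0.00115) and between 6 and 24 h (-0.30, SE 0.11, adjusted p = 0.0334). The last of these calls was lost without any 1 library of 0.5, 6, 24 or 48 h (-0.36 to -0.28) and when scaled to total counts (-0.18).

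The earliest called fall of BID against 0 h, at 6 h (log2 fold change -0.59, edgeR adjusted p = 0.000388), depended on the GC trend, without which it was -0.21 and not called. At 3 h the difference was -0.04 and not called, and its direction depended on the setting. Removing the trend gave 0.25 (edgeR adjusted p = 0.0443), and scaling to total counts gave -0.32 (edgeR adjusted p = 0.016). The falls from 24 h on held in all 28 alternatives. BID-215 and BID-209, both encoding 195 residues, took 38.5% and 18.8% of the reads, and the intron-retaining BID-207 took 20.1%.

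**Figure D3:**
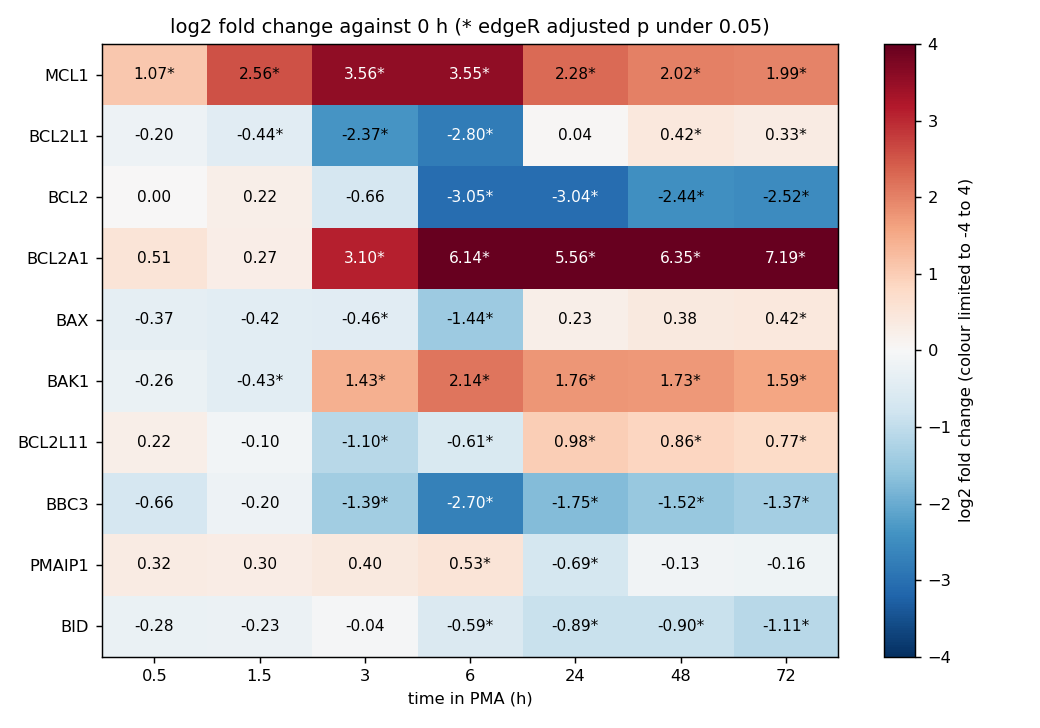
Log2 fold change of each gene (rows) against 0 h at 7 times in PMA (columns), in colour from blue (lower) to red (higher) and limited to -4 to 4, with the value in each cell and an asterisk for an edgeR adjusted p under 0.05. MCL1 is the only row called at 0.5 h, all 10 rows are called at 6 h, and BCL2L1, BAX, BAK1, BCL2L11 and PMAIP1 change sign between called cells.

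Between neighbouring times, most calls fell between 1.5 and 24 h. From 0.5 to 1.5 h 1 member was called (MCL1), with 5.77% of all genes called. Between 1.5 and 3 h 7 were called, 3 higher and 4 lower (25.1% of all genes, 13% higher and 12.1% lower). Between 3 and 6 h 8 were called, 3 higher and 5 lower (41.2%, with 19% higher and 22.1% lower). Between 6 and 24 h 9 were called, 4 higher and 5 lower (56.6%, with 30.8% higher and 25.8% lower). From 24 to 48 h the 3 called members, BCL2L1, BCL2A1 and PMAIP1, were all higher (15% of all genes, 8.88% higher). From 48 to 72 h edgeR called 0 members, as did DESeq2, while edgeR called 1.47% of all genes. At an unadjusted edgeR p under 0.05 there was 1 member (BCL2A1), beside 2098 of all 17559 genes. Directly between 6 and 72 h, 9 members differed, 5 higher and 4 lower at 72 h (57.2% of all genes, 31.6% higher and 25.6% lower), and BCL2 was the member that was not called. When scaled to total counts, 4 members were higher and 2 lower between 6 and 24 h, with BAK1, BCL2A1 and BID no longer called. The share of higher calls among all genes then went from 71.1% to 58% between 0.5 and 1.5 h, from 51.7% to 29% between 1.5 and 3 h, from 54.4% to 65.5% between 6 and 24 h, from 59.2% to 72.9% between 24 and 48 h and from 55.2% to 70.5% between 6 and 72 h.

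On the TPM scale the order of the members was rearranged. At 0 h BCL2L1 (143 ± 9.79 TPM, SD, n = 2) and MCL1 (128 ± 12.4 TPM) led and their libraries overlapped, followed by BAX (55.9 ± 6.15 TPM) and BID (55.0 ± 7.60 TPM), which also overlapped. BBC3 (33.8 ± 6.18 TPM) and PMAIP1 (19.4 ± 1.66 TPM) came next, then BCL2L11 and BAK1, both at about 16 TPM, then BCL2 (1.12 ± 0.243 TPM) and BCL2A1 (0.122 ± 0.0629 TPM). From 0.5 h on MCL1 ranked first at every time, with no overlap with the next gene. At 6 h MCL1 stood at 1151 ± 79.2 TPM and the next gene was BAK1 at 56.2 ± 5.94 TPM, then PMAIP1 and BID, which overlapped, then BCL2L1 at 17.3 ± 1.82 TPM and BAX at 14.9 ± 0.794 TPM. At 72 h the order was MCL1 (491 ± 71.9 TPM), BCL2L1 (185 ± 3.69 TPM), BAX (75.6 ± 4.28 TPM) and BAK1 (50.3 ± 1.99 TPM), then BCL2L11, BID, BCL2A1 and PMAIP1, each overlapping the next between 19.5 and 23.3 TPM on average, then BBC3 (14.1 ± 2.70 TPM) and BCL2 (0.301 ± 0.0180 TPM). The 72 h libraries of BCL2 were close in TPM but differed 2.44-fold in CPM, so its small SD is no measure of precision. With annotated in place of effective lengths, 6 of the 10 ranks were the same at 0 h and 8 at 72 h.

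The guardian RNA passed for a time almost wholly to MCL1. MCL1 made up 49.8% and 44.0% of the summed guardian TPM at 0 h, 71.0% and 69.1% at 0.5 h, then 97.9% and 97.9% at 6 h and in the end 72.2% and 68.5% at 72 h. The MCL1 over BCL2L1 ratio was 1.00 and 0.792 at 0 h, then 64.8 and 68.3 at 6 h and in the end 2.89 and 2.41 at 72 h. BCL2A1 reached 2.69% and 3.12% of the guardian sum at 72 h, and BCL2 was under 0.5% in every library. The TPM of a gene counts all of its transcripts. For MCL1 these include the non-coding MCL1-203, on average 12.9% of the gene's TPM at 0 h, 27.3% at 0.5 h and 16.2% at 6 h. For BCL2L1 they include the short form BCL2L1-202, at 5.13% at 0 h and 2.23% at 6 h. The guardian shares, sums and ratios therefore compare RNA only, not RNA for guardian proteins alone, and carry no test.

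Set against the effectors, the sum of guardian TPM depended on MCL1. Guardian over effector TPM was 4.11 and 3.49 at 0 h, then 16.3 and 16.9 at 6 h and in the end 6.18 and 4.93 at 72 h. Without MCL1 the same ratio was 2.06 and 1.95 at 0 h, then 0.349 and 0.351 at 6 h and in the end 1.71 and 1.56 at 72 h, so it moved the other way at 6 h. Guardian over BH3-only TPM was 2.36 and 2.04 at 0 h, then 18.6 and 18.1 at 6 h and in the end 10.1 and 7.69 at 72 h. Within the BH3-only sum, which was 116 and 132 TPM at 0 h and 66.4 and 61.8 TPM at 6 h, PMAIP1 rose from 17.7% and 13.7% to 40.7% and 40.8%, while BBC3 went from 25.4% and 28.8% to 7.18% and 6.43%. At 72 h BCL2L11, BID and PMAIP1 held 27.9% and 30.8%, 27.1% and 28.7%, and 28.5% and 21.3% of that sum.

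**Figure D4:**
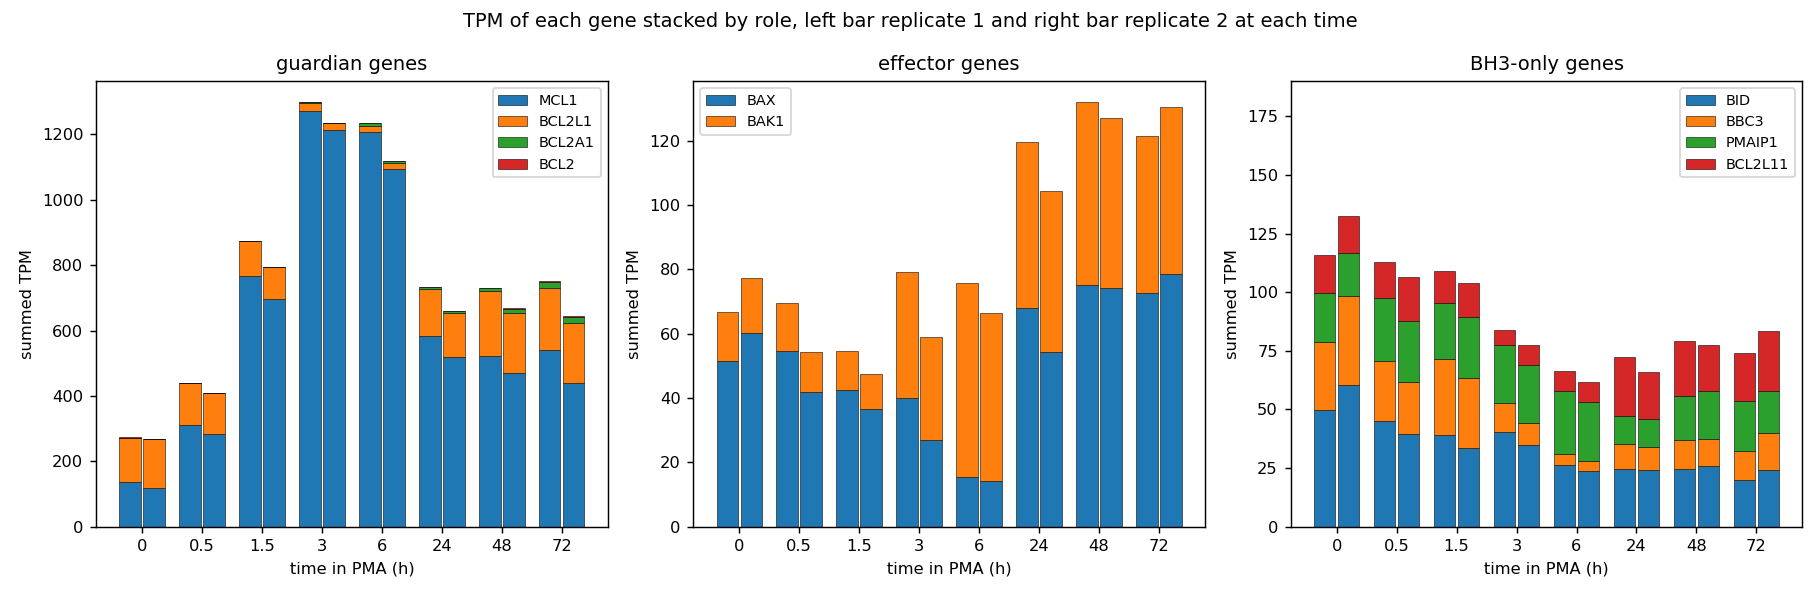
Summed TPM of the guardian, effector and BH3-only genes, stacked by gene, against hours in PMA, with the left bar of each pair for replicate 1 and the right bar for replicate 2. The 3 vertical axes differ in range. MCL1 fills 97.9% of both guardian bars at 6 h, and BAK1 replaces BAX as the larger part of the effector bars at that time.

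Some members followed one another over the 8 time points. The Pearson correlation of mean log2 CPM was 0.88 between BCL2L1 and BAX and between BCL2L1 and BCL2L11, 0.93 between BCL2A1 and BAK1, -0.92 between BAK1 and BBC3, and -0.95 between BCL2 and BCL2A1. MCL1 and BCL2L1 had -0.72, and BAK1 and BAX -0.02. The points share their libraries and the 0 h level, and no test is given. Among all genes averaging 5 CPM or more, the 3 genes most like each member had correlations of 0.979 to 0.996 over the same 8 times.

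Those nearest to MCL1 were GADD45B, FBXO33 and GPATCH2L, those nearest to BCL2L1 were ZNF792, NRROS and SNX18, those nearest to BCL2 were OSBP2, AFG1L and ESRRB, and those nearest to BCL2A1 were NPTN, ENC1 and TMEM127. For the effectors they were SIL1, VAMP8 and OBSL1 (BAX), and KCNC4, NBPF4 and TESK1 (BAK1). For the BH3-only genes they were LCA5, VANGL1 and ZNF318 (BCL2L11), TLE3, CCDC88C and FAM53B (BBC3), ATAD2, CIP2A and C1orf112 (PMAIP1), and NDUFA7, ATP5MC2 and MAZ (BID). With 8 points and 11268 candidates, nothing is read from these values about function.

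Other genes of the family changed as well. Of 13 further BCL2 family genes 11 were tested, and at 6 h 2 were called higher and 5 lower, at 72 h 3 higher and 4 lower, with a median log2 fold change of -0.14 and -0.32 beside 0.00 and -0.03 over all genes. That is 7 of 11 called at each time, with 57.2% of all genes called at 6 h and 58.6% at 72 h. BCL2L10 and BIK, with at most 1 and 9 reads in a library, fell under the filter. BMF, a BH3-only gene, was at 2.21 ± 0.652 CPM (SD, n = 2) at 0 h, 0.578 ± 0.0332 CPM at 6 h and 24.3 ± 0.956 CPM at 72 h. It fell by 1.92 (SE 0.24, edgeR adjusted p = 1.05e-05) on the log2 scale at 6 h and was higher by 3.46 (SE 0.19, adjusted p = 1.99e-09) at 72 h. BOK, a relative of the effectors, rose from 1.23 ± 0.353 CPM to 13.4 ± 0.833 CPM at 6 h (log2 fold change 3.44, SE 0.22, adjusted p = 1.39e-08). BCL2L12, the member of this list with the highest mean TPM, was called only at 72 h (-0.45, SE 0.18, adjusted p = 0.0492).

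Downstream of the mitochondria, the apoptosome and caspase genes were called in both directions. Of 11 tested, 4 were higher and 6 lower at 6 h, and 3 higher and 4 lower at 72 h, with medians of -0.57 and -0.18, beside 57.2% and 58.6% of all genes called. ENDOG, a mitochondrial nuclease, fell from 23.8 ± 5.47 CPM (SD, n = 2) at 0 h to 4.94 ± 0.822 CPM at 24 h (log2 difference -2.26, SE 0.21 and edgeR adjusted p = 5.62e-07). CYCS, which encodes cytochrome c and had the highest TPM of the list, was called higher at 3 h (0.73, SE 0.21, adjusted p = 0.0122) and at 6 h (0.62, SE 0.21, adjusted p = 0.0211), and its log2 differences from 24 h on were -0.12 to -0.18, not called.

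All 6 inhibitor of apoptosis genes tested were called at 6 h, 4 higher and 2 lower, and at 72 h, 5 higher and 1 lower, with medians of 0.64 and 0.74, beside 57.2% and 58.6% of all genes called (27.8% and 31.7% higher). BIRC3, which encodes the ubiquitin ligase cIAP2, rose from 0.686 ± 0.288 CPM (SD, n = 2) to 10.9 ± 0.757 CPM at 24 h (log2 difference 3.97, SE 0.29 and edgeR adjusted p = 6.39e-08) and was at 3.67 ± 1.35 CPM at 72 h. BIRC7 averaged 0.126 CPM at 0 h and less from 0.5 to 6 h, and reached 1.25 ± 0.118 CPM at 24 h, 7.72 ± 0.0723 CPM at 48 h and 18.5 ± 0.635 CPM at 72 h. Its log2 fold change at 72 h was 7.16 (SE 0.32, adjusted p = 2.46e-10). The 0 h level under this value was near the floor of 3 reads, so the size of the rise is imprecise. BIRC6, the list's highest in TPM, rose by 0.55 (SE 0.10, adjusted p = 0.000462) at 72 h.

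In the death receptor path, 6 of 12 genes were higher and 3 lower at 6 h, and 7 higher and 2 lower at 72 h, with medians of 0.43 and 0.80, beside 57.2% and 58.6% of all genes called. CFLAR, which encodes the caspase-8 inhibitor FLIP and led the list in TPM, rose from 233 ± 9.58 CPM (SD, n = 2) to 572 ± 21.1 CPM at 6 h (log2 difference 1.29, SE 0.10 and edgeR adjusted p = 1.36e-07). RIPK1, a receptor-associated kinase, rose from 37.3 ± 0.743 CPM to 116 ± 9.30 CPM at 6 h (1.64, SE 0.09, adjusted p = 1.87e-09). FASLG, a death ligand, had 0 reads in both 0 h libraries and 7.13 ± 1.28 CPM at 6 h. This was at least 75.6-fold higher against a floor of 3 reads per 0 h library (edgeR adjusted p = 3.86e-09).

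Among 12 regulators of BCL2 family proteins, 6 were higher and 2 lower at 6 h, and 5 higher and 5 lower at 72 h, with medians of 0.34 and 0.14, beside 57.2% and 58.6% of all genes called. PIM1 and PIM3 encode related kinases that phosphorylate BAD, and they moved apart. PIM1 fell from 792 ± 134.5 CPM (SD, n = 2) at 0 h to 76.6 ± 5.84 CPM at 24 h (log2 difference -3.37, SE 0.13 and edgeR adjusted p = 8.55e-11). PIM3 rose from 31.2 ± 7.16 CPM to 200.2 ± 11.6 CPM at 6 h (2.68, SE 0.18, adjusted p = 2.44e-08) and was at 43.6 ± 11.2 CPM at 72 h. VDAC2, a mitochondrial channel that binds BAK and BAX and the highest of the list in TPM, was lower at 72 h (-0.46, SE 0.11, adjusted p = 0.00233).

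**Figure D5:**
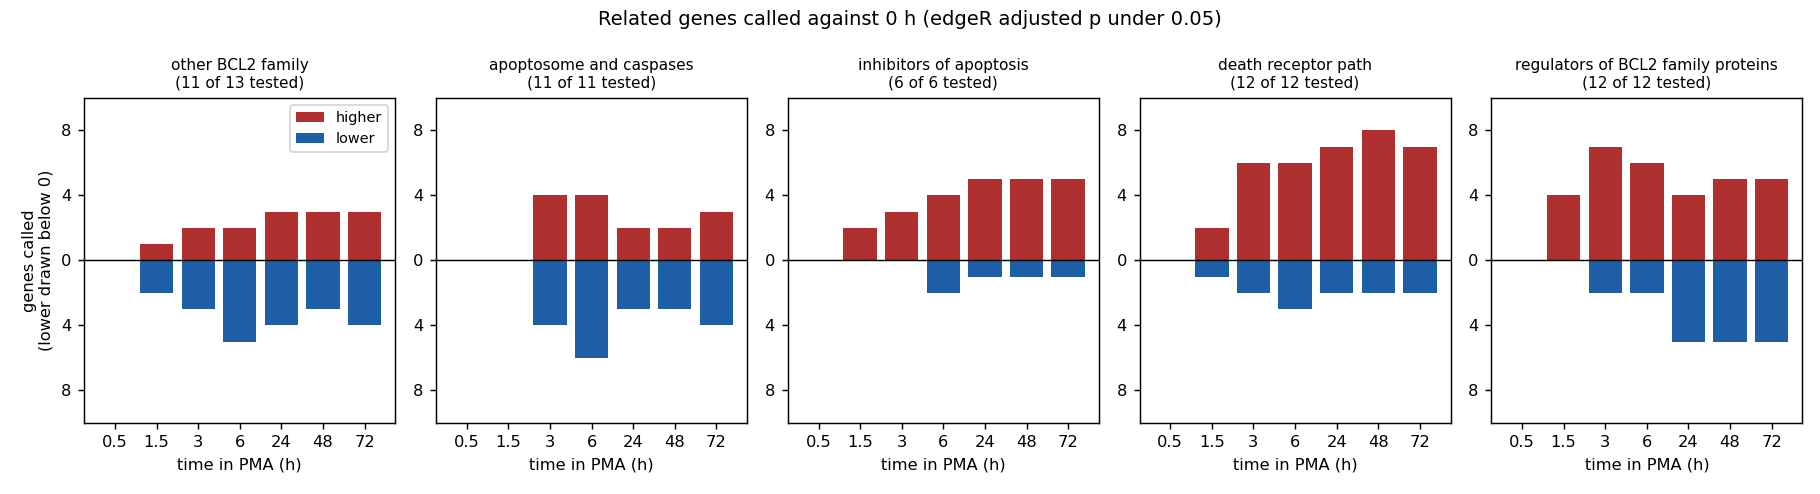
Number of genes called higher (red, above 0) and lower (blue, below 0) against 0 h at 7 times in PMA, by edgeR adjusted p under 0.05, for 5 lists of related genes with the number tested in each title. Calls begin at 1.5 or 3 h, and the inhibitor of apoptosis list has 5 higher and 1 lower from 24 h on.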

How the data were processed

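RNA-seq libraries from K562 cells at 8 times in PMA (2 each) were used as quantified by the submitters. Trim Galore 0.4.3 and Salmon (version not given) and the builds hg19 and hg38 are named in the submitters' processing notes, without roles; the transcript annotation release is not given in the sources used here. The deposited files hold estimated counts per transcript (NumReads, not whole numbers) and TPM, per the file headers. Of 177456 transcripts, 167027 (94.1%) matched GENCODE 29 (GRCh38) and were summed to 35052 genes; 3.01% to 3.75% of reads were unmatched. Sums were rounded and fitted in edgeR 4.0.16 (R 4.3.3) with filterByExpr, TMM factors (0.854 to 1.139), all 8 times in one model (8 residual degrees of freedom) and the quasi-likelihood F-test. Adjustment was by Benjamini-Hochberg within a contrast. CPM uses TMM-scaled totals; fitted values use a prior count of 0.125. The fit was tested on simulated data for 72 h against 0 h (17061 genes, 200 changed): 79% of 2-fold and 98% of 4-fold changes were recovered, with 3 false among 180 calls. Far fewer genes changed there than were called in these data at 72 h (58.6%). The simulated rates therefore do not show how often the calls here are wrong or missed.

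Alternatives covered thresholds, scaling, filters, DESeq2 1.42.0, transcript classes, a replicate block, GC trend removal, and leaving out each library. The members and the lists of related and marker genes were chosen with earlier results of these data known. Related genes were named by rule: in each list, the 2 genes with the largest absolute log2 fold change against 0 h among calls (mean of at least 1 CPM) and the gene with the highest mean TPM; and, for pattern, the 3 genes of at least 5 CPM with the highest correlation. A gene that this rule selects is not reported here. Promoters came from RefSeq (GRCh38.p14); MCL1 had no entry. The counting intervals of BCL2A1 cover counting error only, whereas the 95% intervals of log2 differences come from the fit and include the spread between libraries.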

Additional observations from a re-analysis of the deposited data

Results flagged for a closer look

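Each of these 5 genes passed the threshold in opposite directions against 0 h at different times, and the difference between those times was tested directly with edgeR's quasi-likelihood test. The pair of times given for each gene is the one with the largest difference among such pairs whose direct test was called. The p-values below come from the same fit as that choice and are no separate evidence. BAK1 was lower at 1.5 h and higher from 3 h on, and its log2 difference between 6 and 1.5 h was 2.56 (SE 0.13, adjusted p = 2.28e-09), although the 1.5 h dip itself was not stable. BAX differed between 72 and 6 h by 1.86 (SE 0.16, adjusted p = 4.85e-07), with the 72 h call itself lost without 0 h replicate 1. BCL2L1 differed between 48 and 6 h by 3.21 (SE 0.12, adjusted p = 1.83e-10). BCL2L11 differed between 24 and 3 h by 2.08 (SE 0.09, adjusted p = 6.57e-10). PMAIP1 differed between 24 and 6 h by -1.22 (SE 0.17, adjusted p = 4.06e-05). Time in PMA and time in culture cannot be told apart in these differences, nor, for BAX and BCL2L1, can renewal of the medium. The BAK1, BCL2L11 and PMAIP1 differences are between times up to 24 h, when the medium was first renewed.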

How the results depend on the processing

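Of the 46 member differences called against 0 h, 37 kept their direction and their call in every alternative run, 28 for each gene and 27 for BCL2A1, which a minimum of 10 counts in every library leaves out; the others were BCL2L1 at 1.5, 48 and 72 h, BAK1 for 1.5 h, BAX at 3 and 72 h, PMAIP1 and BID at 6 h and MCL1 for 0.5 h. Over all 3903 recomputed values, 123 lost a call, 58 gained one and 2 turned direction with a call: BID at 3 h was 0.25 with the GC trend removed, with or without a replicate block. A further 63 values changed sign with no call on either side. Depth limited BCL2A1 up to 1.5 h and BCL2 from 6 h on. Except where stated, the cause of a change was not tested.

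Counts of members called moved by over 1.5 times as follows. At 0.5 h they were 2 with no low-count filter and 0 with only the 2 time points compared. At 1.5 h they were 1 at an adjusted p under 0.01, with the GC trend removed (with or without the block) and with only the 2 time points, and 5 scaled to total counts. Between 0.5 and 1.5 h they were 2 scaled to total counts and with the GC trend removed (with or without the block) and 4 with only the 2 time points. Between 24 and 48 h they were 0 at an adjusted p under 0.01 and 1 with counts derived from TPM, and between 48 and 72 h 1 with no low-count filter and with the block and GC trend removed.

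Counts over all genes moved likewise. At an adjusted p under 0.01 they were 18 for 0.5 h, 1160 for 1.5 h, 540 between 0.5 and 1.5 h, 1321 between 24 and 48 h and 77 between 48 and 72 h. With no low-count filter they were 1538 for 0.5 h and 659 between 48 and 72 h, by DESeq2 123 for 0.5 h, and with counts derived from TPM 77 between 48 and 72 h. With protein-coding transcripts only they were 1969 for 1.5 h, 637 between 0.5 and 1.5 h and 142 between 48 and 72 h. With the GC trend removed they were 3972 between 24 and 48 h and 430 between 48 and 72 h, and with the block as well 53 for 0.5 h, 1640 between 0.5 and 1.5 h, 6626 between 1.5 and 3 h, 4455 between 24 and 48 h and 526 between 48 and 72 h. With only the 2 time points they were 12 for 0.5 h, 1098 for 1.5 h, 4823 for 3 h, 2473 between 0.5 and 1.5 h, 4444 between 24 and 48 h and 87 between 48 and 72 h.

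Without each library in turn, genes called against 0 h numbered 20 to 3585 for 0.5 h (3585 without 0 h replicate 1), 1006 to 5008 for 1.5 h, 6066 to 7807 for 3 h, 8621 to 10369 for 6 h, 8068 to 10655 for 24 h, 7903 to 9959 for 48 h and 9154 to 10644 for 72 h. Between neighbouring times they numbered 427 to 1163, 2818 to 4889, 5482 to 7639, 7393 to 10381, 1115 to 3222 and 37 to 349, and between 6 and 72 h 8133 to 10516. Members called against 0 h numbered 1 to 4, 1 to 5, 6 to 9, 9 to 10, 8 to 8, 7 to 9 and 7 to 10, between neighbouring times 1 to 2, 6 to 7, 7 to 8, 6 to 9, 0 to 3 and 0 to 0, and between 6 and 72 h 9 to 10.

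Scaled to total counts, the median log2 fold change of all genes against 0 h was -0.12 for 1.5 h, -0.28 for 3 h, -0.35 for 6 h, -0.26 for 24 h, -0.18 for 48 h and -0.19 for 72 h, beside -0.03 to 0.00 with TMM, and the higher share of calls went from 48.6% to 30.3% for 6 h, from 51.2% to 27.4% for 3 h, from 52.9% to 31.9% for 1.5 h, from 54.4% to 38.7% for 24 h, from 55.7% to 44.3% for 48 h and from 54% to 44.5% for 72 h. Over all genes, the deviations of samples with the same replicate number correlated at -0.09 to 0.17 (28 pairs of times, 9 over 0.1), so the numbers were not taken as pairs, although MCL1 was higher in replicate 1 at all 8 times and the fragment-length gap differed by number at the 7 treated times. With a replicate block, 139 of 140 member results kept their call and PMAIP1 for 3 h (0.39) gained one. TPM ranks were the same for 6 of 10 members at 0 h with annotated lengths.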
